A study of Homo sapiens with 36 samples.

Results

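The 10 genes described here encode proteins that write or act on repressive H3K9 methylation, silence retroelements, or remodel heterochromatin: SUV39H1, SUV39H2, EHMT2, SETDB1, TRIM28, TASOR, MPHOSPH8, PPHLN1, MORC2 and HELLS. The rule that picks them uses names and no measured value, although the members were chosen with earlier results of these data known. They were matched by symbol to the Ensembl gene IDs of the deposited counts. All 10 were found among the 19942 protein-coding genes and all 10 were among the 15415 that passed the filter on low counts and were tested. The series is bulk polyA RNA-seq of HCT116, an established human colorectal cancer line, in 36 libraries: 4 lines, 3 days and 3 libraries in each of the 12 groups. The lines were WT, DNMT1-AID, UHRF1-AID and, with both proteins tagged, UHRF1-AID/DNMT1-AID, where AID is an auxin-inducible degron fused to the named protein; UHRF1-AID/DNMT1-AID is also called the double degron line here. All lines, WT included, carry the auxin receptor OsTIR1 under a doxycycline-inducible promoter and all received the same drugs: 2 µg/mL doxycycline with 20 µM auxinole for a day, then 2 µg/mL doxycycline with 500 µM auxin for 2, 6 or 8 days. Untreated cells and day 4 were not analysed here. The study calls the 3 libraries of a group biological replicates and speaks of clones for its degron lines in general, but the labels do not say which clone or culture gave a library, so p-values measure the spread between these libraries.

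Methylation of lysine 9 of histone H3 (H3K9) marks silent chromatin and is bound by the HP1 proteins. SUV39H1 and SUV39H2 place the trimethyl mark at pericentromeric repeats, EHMT2 (G9a) places mono- and dimethyl marks with EHMT1, and SETDB1 trimethylates H3K9 at retroelements, to which KRAB zinc finger proteins bring it through TRIM28 (KAP1). TASOR, MPHOSPH8 and PPHLN1 form the HUSH complex, which silences young LINE-1 elements and transgenes together with SETDB1 and the ATPase MORC2. HELLS (LSH) is a SNF2-family nucleosome remodeler needed for DNA methylation of repeats. UHRF1 reads hemimethylated DNA and methylated H3K9 and brings the maintenance DNA methyltransferase DNMT1 to replicated DNA.

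The counts of the 2 tagged genes were checked first. The degron acts on the protein, so mRNA does not measure depletion. Against WT, both lines with a tagged DNMT1 had less DNMT1 mRNA on each day, by 1.38 to 2.18 on the log2 scale. DNMT1 mRNA was also lower in UHRF1-AID, where DNMT1 is untagged, on day 2 (log2 fold change -0.71, SE 0.21, adjusted p = 0.0148). UHRF1 mRNA passed the test against WT in UHRF1-AID/DNMT1-AID on day 8 (log2 fold change -1.29, SE 0.25, adjusted p = 7.29e-05). The WT level was not steady: both mRNAs passed as higher than on day 2, by 1.27 and 2.12 on the log2 scale on day 6. On day 8 the values were 1.52 and 1.93. Read totals ran from 21074536 to 37175136, and 7 of 8 epithelial markers were at 30.1 CPM (read counts relative to the TMM-scaled library size) or more in every library, whereas CEACAM5 was at 0.152 CPM or less. The 8 markers of fibroblasts and endothelium reached at most 2.603 CPM in any library, and PTPRC, CD3E and CD14 of white blood cells at most 2.496 CPM, although PTPRC, CD14 and PECAM1 passed the test as higher in UHRF1-AID/DNMT1-AID than in WT on day 8. The mitochondrial share of reads ran from 1.36% to 10.8% and moved with the groups on day 8: 2.87% to 3.73% in WT, 4.79% to 7.93% in DNMT1-AID, 4.68% to 7.41% in UHRF1-AID and 7.72% to 10.8% in the double degron line. Without mitochondrial genes, an alternative chosen after seeing the data, 76 of the 77 member calls held; the part of RNA quality in the results was not tested otherwise.

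Sequences before a RefSeq start of the 5 members with the largest log2 fold changes in UHRF1-AID/DNMT1-AID on day 8 are shown first, because CG dinucleotides are the sites of DNA methylation. Sequences are from RefSeq on GRCh38.p14, on the strand of the gene, 5′ to 3′. In the table of start-site windows (250 bases before to 50 after each start), 9 of the 10 members matched and TRIM28 did not. In the HELLS windows, capitals mark matches to the E2F motif: TTTGGCGC, read on the opposite strand, at chr10:94545701-94545730, and TTTCCCGC at chr10:94545758-94545787.
HELLS, -87 to -58: aaccgcaagctGCGCCAAAtctcgcgcagc
HELLS, -30 to -1: aggtatcgcgagatgacaggatTTTCCCGC
SUV39H1, chrX:48696484-48696733, plus strand: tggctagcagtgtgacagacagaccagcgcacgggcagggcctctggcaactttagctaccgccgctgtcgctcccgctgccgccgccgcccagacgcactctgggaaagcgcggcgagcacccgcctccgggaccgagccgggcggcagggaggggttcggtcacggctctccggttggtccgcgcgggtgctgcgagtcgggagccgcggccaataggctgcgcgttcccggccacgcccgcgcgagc
SUV39H2, chr10:14878728-14878819, plus strand: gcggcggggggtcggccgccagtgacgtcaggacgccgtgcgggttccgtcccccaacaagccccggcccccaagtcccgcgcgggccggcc
TASOR, chr3:56683266-56683487, minus strand: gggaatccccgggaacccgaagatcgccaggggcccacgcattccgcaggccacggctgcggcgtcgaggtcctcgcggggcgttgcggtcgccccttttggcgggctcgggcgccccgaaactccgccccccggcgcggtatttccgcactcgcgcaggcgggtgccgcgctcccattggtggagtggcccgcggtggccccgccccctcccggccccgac
MORC2, chr22:30968775-30969024, minus strand: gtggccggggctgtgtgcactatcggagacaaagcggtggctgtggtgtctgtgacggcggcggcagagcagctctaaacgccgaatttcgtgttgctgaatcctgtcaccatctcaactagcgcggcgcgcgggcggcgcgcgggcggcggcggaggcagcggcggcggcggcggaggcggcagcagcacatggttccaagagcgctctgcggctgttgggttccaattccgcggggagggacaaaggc

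Annotated exons were left out of the SUV39H2 and TASOR stretches, and both HELLS windows lie wholly in annotated HELLS exon. RefSeq gives SUV39H1 a second start: the stretch printed lies inside the gene span of the annotation, and the 250 bases before the outer start (chrX:48695304-48695553) hold 5 CG dinucleotides. The stretches hold 35 CG dinucleotides in the 250 bases of SUV39H1, 14 in the 92 bases of SUV39H2, 33 in the 222 bases of TASOR and 31 in the 250 bases of MORC2. Only the 250 bases before each start were searched, on both strands. TTTCCCGC was found there in 1.703% of the 27303 genes in the table and TTTGGCGC in 0.681%, and HELLS was the only member with either. The CHR element TTTGAA was in 16.1% of genes and in 2 members, TASOR and PPHLN1. The TASOR match is not in the stretch printed but before another RefSeq start, inside the gene span. The 250 bases before that start (chr3:56664047-56664296) hold 1 CG dinucleotide. The CCAAT box, CCAAT, was in 36.9996% of genes and in 5 members, and the NRF1 motif was in 1.28% of genes and in none of the 9 members. In no member did matches of different motifs overlap. A match describes the letters only.

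Levels were compared between genes per length of exon. In WT on day 8, TRIM28 stood at 247 ± 11.2 CPM per kb (SD, n = 3) and EHMT2 at 14.3 ± 0.712. Then came SUV39H1 at 7.28 ± 0.565, MPHOSPH8 at 6.55 ± 0.270 and TASOR at 5.93 ± 0.197 CPM per kb. Every pair of neighbours in this order had libraries that did not overlap, except SUV39H1 and MPHOSPH8. SETDB1 stood at 5.00, SUV39H2 at 4.83, PPHLN1 at 4.01, HELLS at 3.33 and MORC2 at 2.65 CPM per kb. In UHRF1-AID/DNMT1-AID on day 8 the order from the bottom was HELLS at 1.16 ± 0.179, SUV39H2 at 2.26 ± 0.257, SUV39H1 at 2.40 ± 0.347, TASOR at 3.08 ± 0.205 and MORC2 at 3.71 ± 0.0880 CPM per kb. There SUV39H2 and SUV39H1 overlapped, as did MORC2 and SETDB1 (4.32 ± 0.608).

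**Figure D1:**
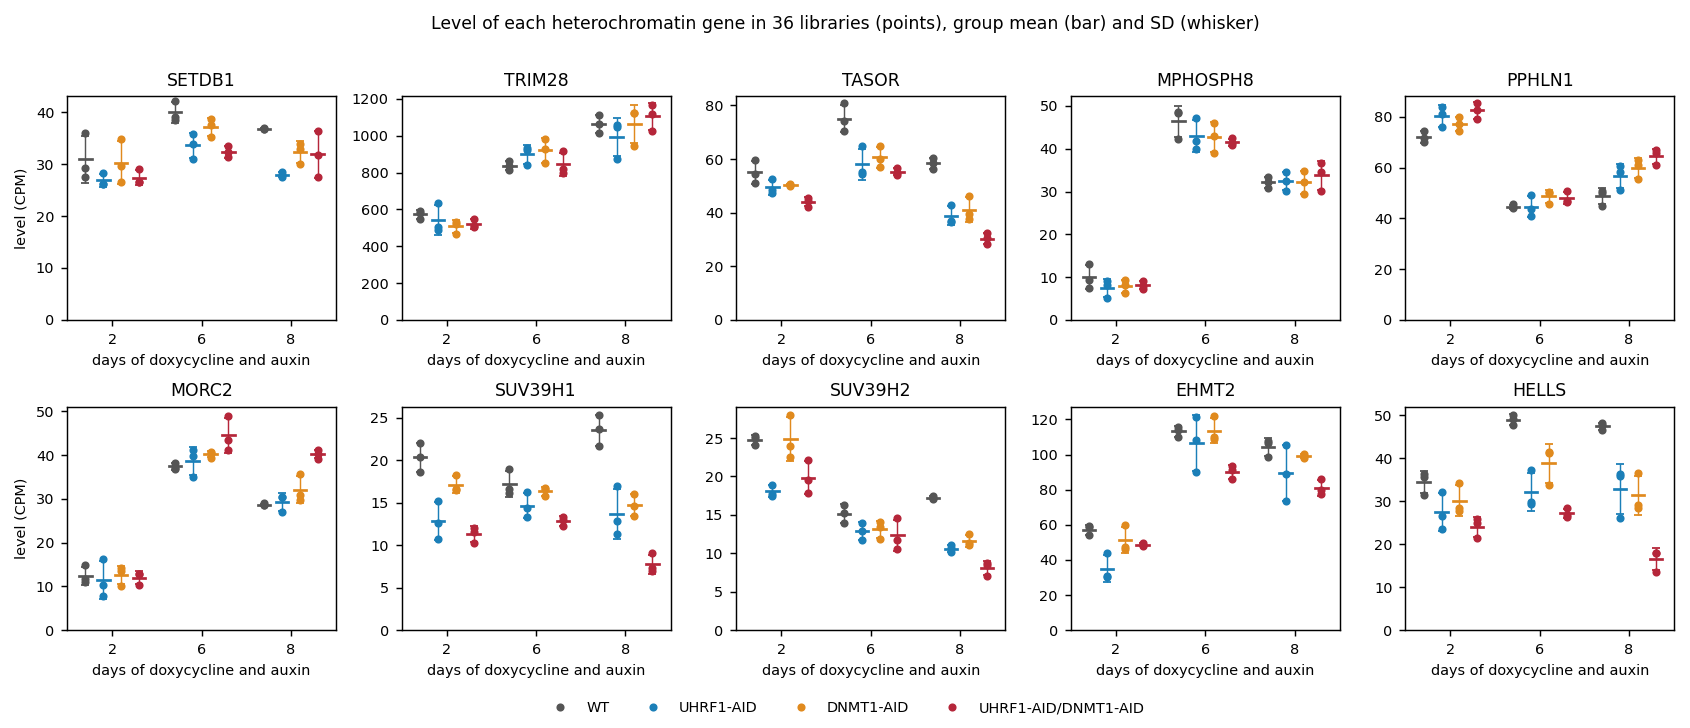
Level of each of the 10 members (y axis, CPM, from 0) by days of doxycycline and auxin (x axis) in 4 lines. Points are the 36 libraries, bars the group means and whiskers the SD over 3 libraries; on day 8 the 3 UHRF1-AID/DNMT1-AID libraries lie lowest for SUV39H1 (6.93 to 9.03 CPM), SUV39H2, TASOR and HELLS, and highest for MORC2.

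The main question the design puts to these genes is how each degron line differed from WT treated for the same time. On day 8 in UHRF1-AID/DNMT1-AID, SUV39H1, HELLS, SUV39H2, TASOR and EHMT2 fell and MORC2 and PPHLN1 rose, so that 7 of 10 members passed the test (edgeR quasi-likelihood, Benjamini-Hochberg over 15415 genes, adjusted p under 0.05). The 5 that fell compare with 32.8% of all genes tested that fell, and the 2 that rose with 35.7% that rose, so that the share of members that rose was under that of all genes. Here and in the other comparisons the background is the share of all genes tested that passed in the same direction, or in either direction where that is said, and it was not tested against the members' share. The median member was at -0.29 and the median gene at 0.03 on the log2 scale. In UHRF1-AID on day 8, 5 members fell (background 21%) and 1 rose (background 24.2%). In DNMT1-AID on day 8, 4 fell (background 22.4%) and 1 rose (background 25.1%). The 3 lines were compared with the same 3 WT libraries, so these counts are not independent of each other.

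Earlier, fewer members passed in each line, and so did fewer of all genes. In the double degron line, though, more members fell on day 6 than on day 8. On day 2, 3 members fell in UHRF1-AID (background 14.4%) and none rose (background 12.1%; at an unadjusted p under 0.05, 1 was higher). None of the 10 passed in DNMT1-AID on day 2, by edgeR or DESeq2 or at an unadjusted p under 0.05, where 0.714% of all genes fell and 2.67% rose. In UHRF1-AID/DNMT1-AID on day 2, 4 fell (background 11.5%) and PPHLN1 rose (background 16.3%). On day 6, 1 fell in DNMT1-AID (background 4.35%), 2 in UHRF1-AID (background 10.5%) and 6 in the double degron line (background 21.9%). With any 1 of the compared libraries left out, 4 or 5 members passed in the double degron line. With TMM scaling, no member was higher on day 6 by edgeR in any of the 3 lines, also at an unadjusted p under 0.05, where 8.84%, 14.3% and 19% of all genes rose in the same order of lines. With correction for GC content and gene length PPHLN1 passed as higher in DNMT1-AID (0.26, adjusted p = 0.0217) and in the double degron line (0.29, adjusted p = 0.00289), and with the compared libraries alone MORC2 passed in the double degron line (0.31, adjusted p = 0.00283).

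**Figure D2:**
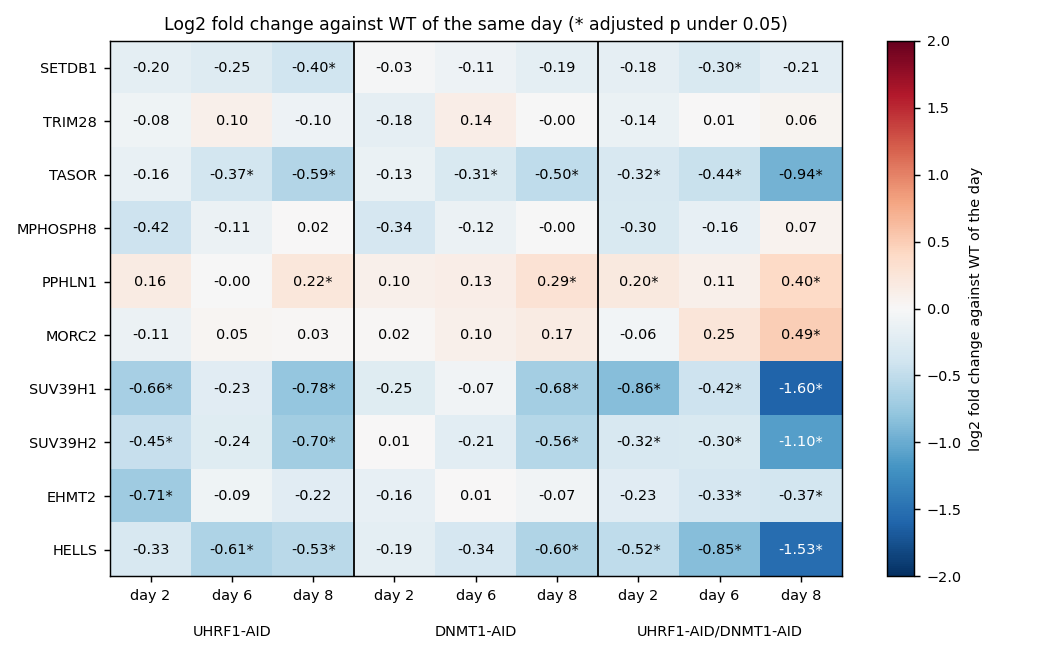
Log2 fold change of each member (down the side) against WT of the same day in 3 degron lines on days 2, 6 and 8 (across), with colour and printed value on the same scale. An asterisk marks an adjusted p under 0.05 by edgeR; the lowest values are SUV39H1 (-1.60) and HELLS (-1.53) in UHRF1-AID/DNMT1-AID on day 8.

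SUV39H1 and SUV39H2, the paralogous enzymes that trimethylate H3K9, both fell in all 3 lines by day 8. SUV39H1 (ENSG00000101945.17, chrX:48695554-48709016) stood at 25.3, 23.6 and 21.7 CPM in the 3 WT libraries of day 8 and at 6.93, 9.03 and 7.29 CPM in UHRF1-AID/DNMT1-AID. It was at 16.96, 11.3 and 12.8 CPM in UHRF1-AID and 16.0001, 13.4 and 14.6 CPM in DNMT1-AID. All libraries of the 3 degron lines lay under all WT libraries, and those of UHRF1-AID/DNMT1-AID lay under both single degron lines. The level was 3.03-fold lower than in WT in UHRF1-AID/DNMT1-AID (log2 fold change -1.60, SE 0.13, adjusted p = 2.04e-12), 1.72-fold lower in UHRF1-AID (log2 fold change -0.78, SE 0.13, adjusted p = 6.68e-06) and 1.5998-fold lower in DNMT1-AID (log2 fold change -0.68, SE 0.13, adjusted p = 5.1e-05). SUV39H1 was already lower on day 2, when WT was at 20.3, 18.6 and 22.03 CPM, UHRF1-AID at 12.6, 10.7 and 15.2 CPM and UHRF1-AID/DNMT1-AID at 10.2, 11.5 and 12.03 CPM. The day 2 groups did not overlap with WT (log2 fold change -0.66, SE 0.13, adjusted p = 0.00021 in UHRF1-AID; log2 fold change -0.86, SE 0.13, adjusted p = 1.11e-05 in UHRF1-AID/DNMT1-AID). On day 6 the gap to WT, at 16.6, 18.9 and 16.1 CPM, was smaller in UHRF1-AID/DNMT1-AID, at 12.96, 12.2 and 13.3 CPM (log2 fold change -0.42, SE 0.13, adjusted p = 0.00866), a call lost without WT replicate 2. Exons of a lncRNA on the opposite strand, ENSG00000232828, cover 21.2% of SUV39H1's exonic bases, and the strand setting of the counting is not given in the sources used here.

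SUV39H2 (ENSG00000152455.16, chr10:14878820-14904315) stood at 17.5, 17.05 and 17.2 CPM in WT on day 8. DNMT1-AID was at 12.5, 11.1 and 11.3 CPM, UHRF1-AID at 10.7, 10.1 and 11.1 CPM and the double degron line at 8.71, 8.44 and 7.01 CPM. The WT libraries lay above every degron library, and the double degron libraries lay lowest. The fall was 1.10 on the log2 scale in UHRF1-AID/DNMT1-AID (SE 0.12, adjusted p = 5.16e-10), with log2 fold changes of -0.70, adjusted p = 6.35e-06 in UHRF1-AID and -0.56, adjusted p = 0.000124 in DNMT1-AID. On day 2, WT was at 24.04, 25.2 and 25.003 CPM and UHRF1-AID at 17.7, 17.5 and 18.9 CPM, with no overlap (log2 fold change -0.45, SE 0.11, adjusted p = 0.00224), while DNMT1-AID was at 28.05, 22.6 and 23.97 CPM, on both sides of WT. The call in UHRF1-AID/DNMT1-AID on day 2 (log2 fold change -0.32, SE 0.11, adjusted p = 0.0321) was lost when any of 5 of its 6 libraries was left out (all but UHRF1-AID/DNMT1-AID replicate 3), and that on day 6 (log2 fold change -0.30, SE 0.11, adjusted p = 0.0334), where libraries overlapped, was lost under 6 of the 9 other settings and without any of 4 of its libraries.

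EHMT2, the H3K9 mono- and dimethyltransferase (ENSG00000204371.11, chr6:31879759-31897698), had its largest gap to WT on day 2 in UHRF1-AID. WT was at 58.6, 53.96 and 59.1 CPM, UHRF1-AID at 31.04, 30.2 and 43.8 CPM and UHRF1-AID/DNMT1-AID at 49.5, 48.6 and 48.1 CPM. Every UHRF1-AID library lay under WT, replicate 3 nearest to it (log2 fold change -0.71, SE 0.12, adjusted p = 2.21e-05). UHRF1-AID/DNMT1-AID did not pass on day 2 (log2 fold change -0.23, edgeR adjusted p = 0.141). It passed with library size alone (adjusted p = 0.0194), with correction for GC content and gene length (0.0165) and with the compared libraries alone (0.0111). On day 6, UHRF1-AID/DNMT1-AID was at 85.9, 91.2 and 93.4 CPM, under all 3 WT libraries (log2 fold change -0.33, SE 0.11, adjusted p = 0.0195), a call lost without WT replicate 3, without UHRF1-AID/DNMT1-AID replicate 1 and with scaling by library size alone. On day 8, UHRF1-AID/DNMT1-AID was at 77.3, 79.8 and 85.9 CPM against 98.4, 108 and 107 CPM in WT, with no overlap (log2 fold change -0.37, SE 0.11, adjusted p = 0.00533). UHRF1-AID, at 106, 73.6 and 89.2 CPM, overlapped with WT and did not pass (log2 fold change -0.22, SE 0.11, adjusted p = 0.109), but it passed after correction for GC content and gene length (-0.36, edgeR adjusted p = 0.00151) and with library size alone (-0.29, edgeR adjusted p = 0.0405). The difference from WT in UHRF1-AID was 0.48 higher on day 8 than on day 2 on the log2 scale (adjusted p = 0.0364), a call lost under 11 of 21 alternatives, 8 of which left out a single library. The antisense gene EHMT2-AS1 covers 8.11% of its exonic bases.

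SETDB1, which trimethylates H3K9 at retroelements (ENSG00000143379.12, chr1:150926263-150964744), fell on day 6 in UHRF1-AID/DNMT1-AID and on day 8 in UHRF1-AID. On day 8, WT was at 36.9, 36.8 and 36.8 CPM, UHRF1-AID at 28.5, 27.8 and 27.5 CPM and UHRF1-AID/DNMT1-AID at 36.4, 31.7 and 27.4 CPM. The UHRF1-AID libraries were close together and under WT (log2 fold change -0.40, SE 0.10, adjusted p = 0.00103), and those of UHRF1-AID/DNMT1-AID were spread out, all under WT, without passing (log2 fold change -0.21, SE 0.10, adjusted p = 0.0518), although they passed with library size alone (-0.40, adjusted p = 0.00158), without the filter, with all annotated genes and with the replicate block. On day 6, SETDB1 in UHRF1-AID (log2 fold change -0.25, SE 0.10, adjusted p = 0.0517) passed under 4 other settings. On day 6, UHRF1-AID/DNMT1-AID was at 32.4, 33.5 and 31.3 CPM and WT at 42.2, 38.6 and 39.04 CPM, with no overlap (log2 fold change -0.30, SE 0.10, adjusted p = 0.0114), a call lost without WT replicate 1 and with scaling by library size alone. Exons of CERS2, a protein-coding gene on the opposite strand, cover 12.9% of SETDB1's exonic bases. TRIM28, the co-repressor that brings SETDB1 to KRAB zinc finger proteins (ENSG00000130726.12, chr19:58544064-58550722), passed the test in none of the 9 comparisons with WT with TMM scaling. On day 8 it stood at 1015, 1112 and 1061 CPM in WT and 1025, 1119.9 and 1169 CPM in UHRF1-AID/DNMT1-AID, with overlapping libraries (log2 fold change 0.06, SE 0.09, adjusted p = 0.607; 95% interval -0.14 to 0.25). With counts corrected for GC content and gene length, TRIM28 was lower than WT in all 3 lines on day 8, with log2 fold changes of -0.31 in DNMT1-AID, -0.35 in UHRF1-AID and -0.49 in the double degron line (edgeR adjusted p = 0.00455, 0.00139 and 9.04e-06). In the double degron line it was also lower with that correction on day 2 (-0.31, adjusted p = 0.00713) and day 6 (-0.22, adjusted p = 0.042). TRIM28 has a GC content above 94.4% of the genes tested.

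Of the 3 HUSH subunits, TASOR fell, PPHLN1 rose and MPHOSPH8 did not pass against WT with TMM scaling. TASOR, the scaffold of the complex (ENSG00000163946.14, chr3:56620132-56683265), was the member called most often, in 7 of the 9 comparisons with WT. On day 8 it stood at 60.3, 56.4 and 58.5 CPM in WT, 46.3, 37.6 and 39.3 CPM in DNMT1-AID, 42.9, 36.5 and 37.1 CPM in UHRF1-AID and 30.4, 28.3 and 32.3 CPM in the double degron line. No degron library reached WT, and the double degron libraries lay under both single lines. The level was 1.92-fold lower in UHRF1-AID/DNMT1-AID (log2 fold change -0.94, SE 0.09, adjusted p = 1.39e-11), with log2 fold changes of -0.59, adjusted p = 7.51e-07 in UHRF1-AID and -0.50, adjusted p = 9.73e-06 in DNMT1-AID. On day 6 WT stood at 74.1, 80.7 and 70.5 CPM and UHRF1-AID/DNMT1-AID at 54.7, 56.8 and 54.2 CPM (log2 fold change -0.44, SE 0.08, adjusted p = 6.24e-05), with log2 fold changes of -0.37, adjusted p = 0.00095 in UHRF1-AID and -0.31, adjusted p = 0.0109 in DNMT1-AID. The call in DNMT1-AID on day 6 was lost without WT replicate 2, without DNMT1-AID replicate 3 and after correction for GC content and gene length. With that correction the day 8 log2 fold change in UHRF1-AID/DNMT1-AID was -0.50 (edgeR adjusted p = 1.67e-06).

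PPHLN1 (Periphilin; ENSG00000134283.18, chr12:42238447-42459715) stood at 50.1, 45.1 and 50.9 CPM in WT on day 8 and at 66.8, 65.6 and 60.9 CPM in UHRF1-AID/DNMT1-AID. UHRF1-AID was at 58.3, 60.6 and 51.3 CPM and DNMT1-AID at 55.5, 61.04 and 62.9 CPM. All 9 degron libraries lay above the 3 of WT, with log2 fold changes of 0.40, adjusted p = 1.82e-05 in UHRF1-AID/DNMT1-AID, 0.22, adjusted p = 0.0175 in UHRF1-AID and 0.29, adjusted p = 0.00167 in DNMT1-AID. Scaling by library size alone ended the call in UHRF1-AID and DNMT1-AID, and that in UHRF1-AID was also lost without WT replicate 2 or UHRF1-AID replicate 1 or 2 and with the compared libraries alone. With correction for GC content and gene length the double degron value was 0.80. The rise on day 2 in UHRF1-AID/DNMT1-AID (log2 fold change 0.20, SE 0.08, adjusted p = 0.0489) was lost under 10 of 15 alternatives, among them leaving out any of its 6 libraries. MPHOSPH8 (MPP8), the HUSH subunit with a chromodomain for methylated H3K9 (ENSG00000196199.14, chr13:19633659-19673441), was at 33.5, 30.8 and 32.2 CPM in WT and 36.6, 34.6 and 30.03 CPM in UHRF1-AID/DNMT1-AID on day 8, with overlap (log2 fold change 0.07, SE 0.14, adjusted p = 0.668; 95% interval -0.22 to 0.36), and passed after correction for GC content and gene length (0.32, adjusted p = 0.0436). Its lowest log2 fold change against WT was -0.42, in UHRF1-AID on day 2 (adjusted p = 0.0588), which passed with RLE scaling (adjusted p = 0.0374), DESeq2 (0.0199) and the GC content and gene length correction (0.0487).

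MORC2, the ATPase that works with HUSH (ENSG00000133422.14, chr22:30925130-30968774), rose in UHRF1-AID/DNMT1-AID on day 8. WT was at 28.6, 28.5 and 28.9 CPM, UHRF1-AID at 27.01, 30.4 and 30.4 CPM, DNMT1-AID at 35.7, 30.8 and 29.8 CPM and UHRF1-AID/DNMT1-AID at 40.3, 39.2 and 41.1 CPM. The double degron libraries lay above all 9 others of that day (1.4004-fold higher than WT; log2 fold change 0.49, SE 0.14, adjusted p = 0.00285). Scaling by library size alone ended the call (adjusted p = 0.0787). The antisense gene MORC2-AS1 covers 14.9% of its exonic bases.

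HELLS, the remodeler (ENSG00000119969.15, chr10:94545329-94613905; E2F windows printed above), fell in 6 of the 9 comparisons with WT. On day 8 it stood at 48.1, 47.7 and 46.6 CPM in WT, 29.1, 28.4 and 36.5 CPM in DNMT1-AID, 35.9, 26.2 and 36.3 CPM in UHRF1-AID and 17.9, 13.6 and 18.04 CPM in the double degron line. The WT libraries were close together and above all others, and the double degron libraries lay under both single lines. The level was 2.88-fold lower in UHRF1-AID/DNMT1-AID (log2 fold change -1.53, SE 0.13, adjusted p = 3.76e-12), with log2 fold changes of -0.53, adjusted p = 0.000773 in UHRF1-AID and -0.60, adjusted p = 0.0002 in DNMT1-AID. On day 6 WT was at 49.1, 47.8 and 50.1 CPM, UHRF1-AID at 37.4, 29.8 and 29.3 CPM and UHRF1-AID/DNMT1-AID at 28.4, 26.3 and 26.8 CPM. Neither of these degron groups overlapped with WT (log2 fold change -0.61, SE 0.13, adjusted p = 0.000365 and log2 fold change -0.85, SE 0.13, adjusted p = 1.58e-06). DNMT1-AID, at 33.7 to 41.5 CPM, also lay under WT but did not pass (log2 fold change -0.34, edgeR adjusted p = 0.0717). It passed with library size alone (adjusted p = 0.0462) and with the compared libraries alone (0.00145). On day 2 UHRF1-AID/DNMT1-AID, at 25.8, 25.04 and 21.5 CPM against 36.3, 35.5 and 31.5 CPM in WT, passed (log2 fold change -0.52, SE 0.13, adjusted p = 0.00345), while UHRF1-AID (log2 fold change -0.33, SE 0.13, adjusted p = 0.0583) passed with RLE scaling, DESeq2 and the replicate block but not with TMM scaling alone.

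On day 8, genes of S phase and proliferation fell beside the members that fell. All 16 on the list (first by p CCNA2 at -1.99, MCM7 at -1.76 and RRM2 at -2.01 on the log2 scale in UHRF1-AID/DNMT1-AID) fell in UHRF1-AID/DNMT1-AID and in UHRF1-AID on day 8, and 14 fell in DNMT1-AID. Their summed level on day 8 was 2977 to 3048 CPM in WT, 1849 to 1896 in DNMT1-AID, 1513 to 2008 in UHRF1-AID and 995 to 1246 in the double degron line. On day 2 it was 3133 to 3260.4 CPM in WT, 2469.9 to 2870.2 in DNMT1-AID, 2052 to 2327 in UHRF1-AID and 2027 to 2109 in the double degron line, with 6, 14 and 16 genes that fell in that order of lines. On day 6 the summed level was 2519 to 2694 CPM in WT and 2256 to 2567 in DNMT1-AID. UHRF1-AID was then at 1951 to 2110 CPM and the double degron line at 1849 to 2193, with 1, 12 and 12 genes that fell. The background for each count is that of its comparison above. These genes and the members did not always move together. In WT from day 2 to day 6, 11 of the 16 fell and 3 rose, while HELLS and TASOR rose. TASOR passed as lower in DNMT1-AID on day 6, and neither HELLS nor TASOR passed in UHRF1-AID on day 2 with TMM scaling alone. The part of proliferation in the fall of SUV39H1, SUV39H2, HELLS and TASOR was not tested. In bulk RNA fewer cells of a kind and less RNA per cell cannot be told apart.

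**Figure D3:**
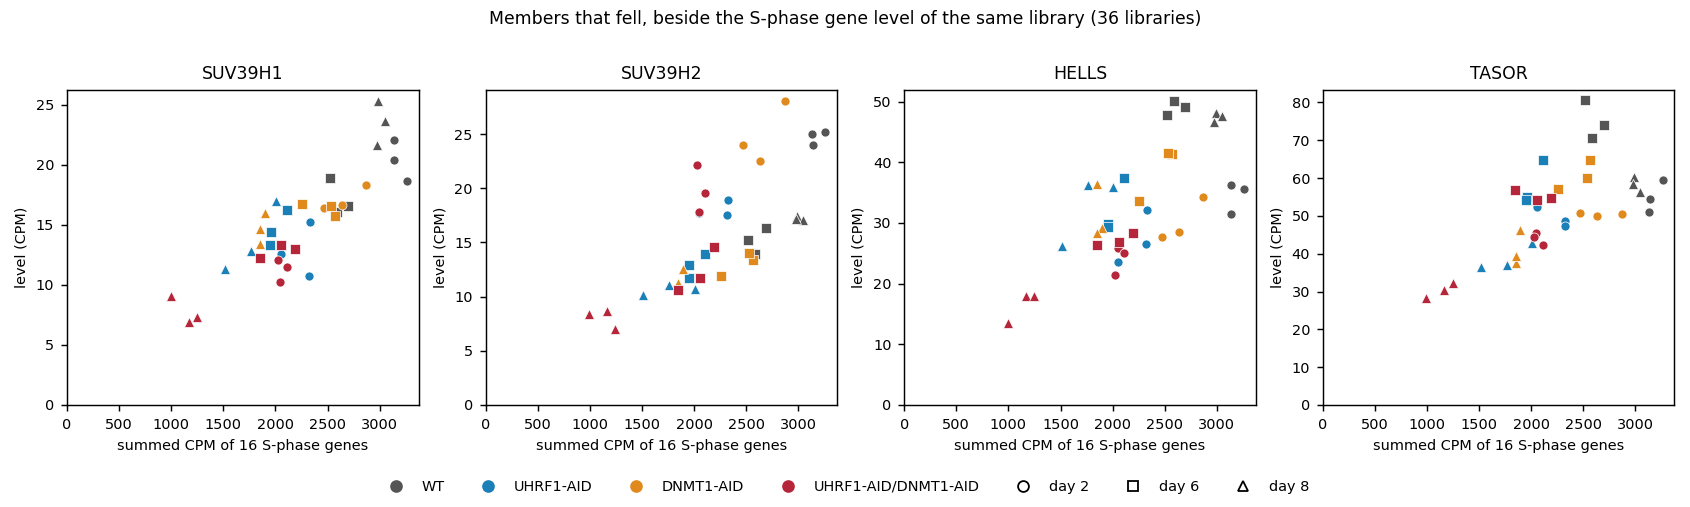
Level of SUV39H1, SUV39H2, HELLS and TASOR (y axes, CPM, from 0) against the summed CPM of 16 S-phase and proliferation genes (x axis, from 0) in the 36 libraries, with line as colour and day as symbol. The 3 UHRF1-AID/DNMT1-AID libraries of day 8 lie at the lower left of each plot (summed level 995 to 1246 CPM), whereas in WT the SUV39H2 libraries of day 2 (24.04 to 25.2 CPM) lie above those of day 8 (17.05 to 17.5 CPM) at summed levels of 3133 to 3260.4 and 2977 to 3048 CPM.

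The lines were next set against each other on day 8. Without correction for GC content and gene length, UHRF1-AID and DNMT1-AID differed in none of the 10 members, by edgeR or DESeq2 (background in either direction 18.3%). By edgeR, 1 member was at an unadjusted p under 0.05. The 95% intervals of the difference were -0.37 to 0.17 for SUV39H1, -0.19 to 0.33 for HELLS and -0.26 to 0.09 for TASOR on the log2 scale. UHRF1-AID/DNMT1-AID differed from UHRF1-AID in 6 members (background in either direction 43.8%): HELLS (-0.99, adjusted p = 3.3e-07), SUV39H1 (-0.82, adjusted p = 1.02e-05), SUV39H2 (-0.40, adjusted p = 0.00619) and TASOR (-0.35, adjusted p = 0.00117) were lower, and MORC2 (0.46, adjusted p = 0.00831) and PPHLN1 (0.18, adjusted p = 0.0449) higher. It differed from DNMT1-AID in 5 members, all lower (background in either direction 46.1%): HELLS (-0.92, adjusted p = 8.84e-07), SUV39H1 (-0.92, adjusted p = 1.44e-06), SUV39H2 (-0.54, adjusted p = 0.000435), TASOR (-0.44, adjusted p = 0.0001) and EHMT2 (-0.30, adjusted p = 0.0337). The p-values are edgeR's, adjusted over all genes tested. MORC2 was at 0.32, adjusted p = 0.0587 against DNMT1-AID and passed as higher with RLE scaling, DESeq2 and the compared libraries alone. Correction for GC content and gene length ended the calls of TASOR and SUV39H2 against UHRF1-AID. It also brought calls for the double degron line. These were SETDB1 (0.23, edgeR adjusted p = 0.0368) and EHMT2 (-0.32, 0.00697) against UHRF1-AID, and PPHLN1 (0.22, 0.0166) against DNMT1-AID. Between the single degron lines it brought a call for SETDB1, with UHRF1-AID the lower line (-0.25, edgeR adjusted p = 0.0397). Scaling by library size alone ended the MORC2 call. Of 15 alternatives, 8 ended the PPHLN1 call against UHRF1-AID and 7 the EHMT2 call against DNMT1-AID.

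Whether the difference from WT changed between day 2 and day 8 was tested as an interaction. In UHRF1-AID/DNMT1-AID it did so in 5 members (background in either direction 38.7%): HELLS by -1.01, SUV39H2 by -0.78, SUV39H1 by -0.74, TASOR by -0.63 and MORC2 by 0.54 on the log2 scale (edgeR adjusted p = 4.84e-05, 0.00024, 0.002, 0.000101 and 0.042). In UHRF1-AID it did so in TASOR (-0.43, adjusted p = 0.0097) and EHMT2 (0.48, adjusted p = 0.0364; background in either direction 17.8%), and in DNMT1-AID in TASOR (-0.38, adjusted p = 0.0281) and SUV39H2 (-0.57, adjusted p = 0.0128; background in either direction 16.3%). Correction for GC content and gene length ended all 3 TASOR calls, the EHMT2 call and the SUV39H2 call in DNMT1-AID, and of 21 alternatives 10 ended the MORC2 call and 7 the TASOR call in DNMT1-AID. The correction also brought calls, in the double degron line for PPHLN1 (0.52, adjusted p = 0.000362), MPHOSPH8 (0.61, 0.0302) and EHMT2 (-0.38, 0.0263) and in DNMT1-AID for PPHLN1 (0.43, 0.0105) and SUV39H1 (-0.64, 0.0224), of which PPHLN1 in the double degron line also passed with RLE scaling and DESeq2. The SUV39H2 call in DNMT1-AID was also lost without DNMT1-AID day 2 replicate 1.

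In WT, the differences of days 6 and 8 from day 2 were larger for MPHOSPH8 and MORC2 than any difference of theirs from WT in a degron line. From day 2 to day 6, 7 members rose (background 35.7%) and 2 fell (background 32.1%). MPHOSPH8 went from 13.01, 9.32 and 7.51 CPM on day 2 to 48.3, 42.3 and 48.6 CPM on day 6 and 33.5, 30.8 and 32.2 CPM on day 8. MORC2 went from 14.8, 10.9 and 11.6 CPM to 37.1, 36.9 and 38.3 and 28.6, 28.5 and 28.9 CPM on the same days. The days did not overlap for either gene, and the rise from day 2 to day 6 was 4.66-fold for MPHOSPH8 (log2 fold change 2.22, SE 0.15, adjusted p = 1.57e-14) and 3.01-fold for MORC2 (log2 fold change 1.59, SE 0.15, adjusted p = 2.67e-11). In the 3 degron lines, too, MPHOSPH8 was between 5.09 and 9.32 CPM on day 2 and at 29.4 CPM or more on days 6 and 8.

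The other WT changes from day 2 to day 6 were smaller. EHMT2 rose from 58.6, 53.96 and 59.1 to 109.9, 114 and 116 CPM (log2 fold change 0.98, SE 0.12, adjusted p = 3.03e-09), TRIM28 rose from 592, 548 and 579.7 to 812, 837 and 861 CPM (log2 fold change 0.55, SE 0.09, adjusted p = 3.48e-06) and PPHLN1 fell from 70.1, 74.5 and 71.6 to 44.3, 44.1 and 45.6 CPM (log2 fold change -0.69, SE 0.08, adjusted p = 6.13e-10). SUV39H2 fell (log2 fold change -0.71, SE 0.11, adjusted p = 9.8e-07), and SETDB1, TASOR and HELLS rose by 0.37, 0.45 and 0.51 on the log2 scale (adjusted p = 0.00113, 1.54e-05 and 0.000618). With counts corrected for GC content and gene length, 5 of 10 members passed from day 2 to day 6 rather than 9: TRIM28 (0.18), TASOR (0.08), SETDB1 (-0.04) and HELLS (-0.10) lost their calls, the last 2 with a turned sign. MPHOSPH8 (2.27), MORC2 (0.88) and EHMT2 (0.30) kept theirs. From day 2 to day 8, 6 members rose (background 30.1%) and 2 fell (background 29.7%), and that correction ended the calls of SETDB1, SUV39H2, EHMT2 and HELLS. From day 6 to day 8, 2 rose (background 17.6%) and 3 fell (background 17%). Between days 6 and 8, TRIM28 (0.35, adjusted p = 0.00408) and SUV39H1 (0.45, adjusted p = 0.00552) rose and MPHOSPH8 (-0.53, adjusted p = 0.00309), TASOR (-0.36, adjusted p = 0.00103) and MORC2 (-0.38, adjusted p = 0.0316) fell. The MORC2 call was lost on leaving out any of its 6 libraries. The correction ended the TRIM28, SUV39H1, TASOR and MORC2 calls and brought calls for PPHLN1 (0.45, edgeR adjusted p = 4.41e-05) and HELLS (0.32, edgeR adjusted p = 0.0322). Scaling by library size alone also ended the TRIM28 and SUV39H1 calls. The labels name no sequencing batch, so a batch that differs by day and the day itself cannot be told apart.

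**Figure D4:**
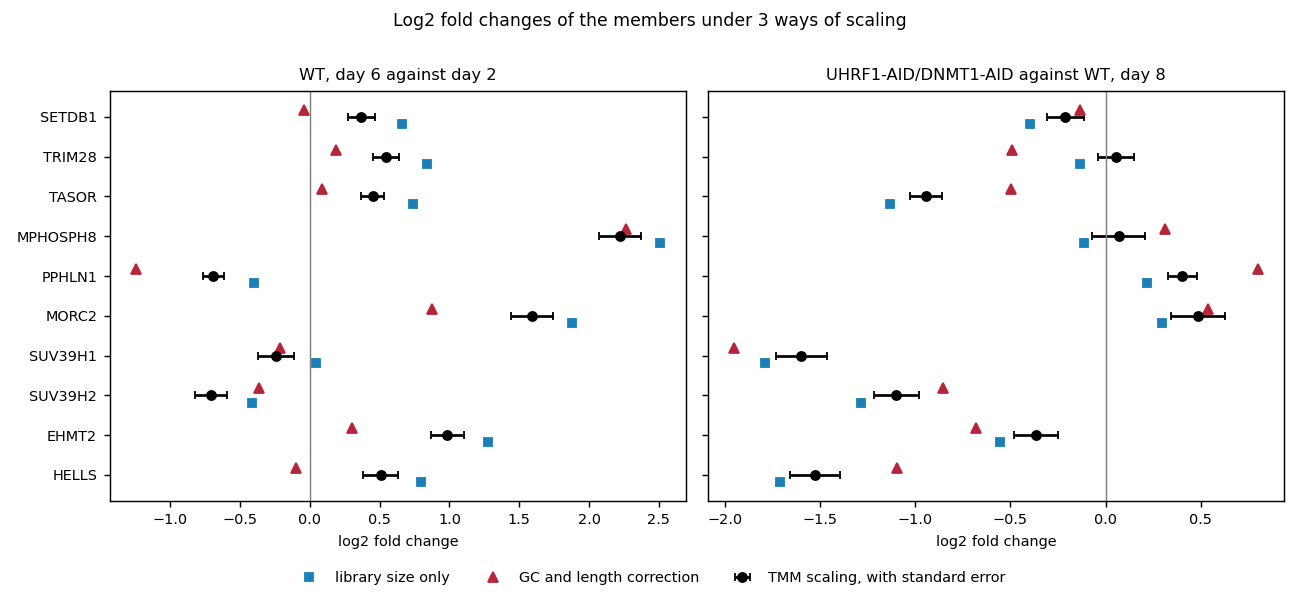
Log2 fold change of each member (x axis) in WT on day 6 against day 2 (left) and in UHRF1-AID/DNMT1-AID against WT on day 8 (right), with TMM scaling and its standard error (black), library size alone (blue) and a correction for GC content and gene length (red). On the left the correction moves HELLS from 0.51 to -0.10 and MPHOSPH8 from 2.22 to 2.27; on the right SUV39H1, SUV39H2, HELLS and TASOR stay under 0 in all 3.

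Partners of these genes were taken from lists and named by smallest p in UHRF1-AID/DNMT1-AID against WT on day 8. Of 10 H3K9 and HP1 partners, 3 fell (background 32.8%) and 1 rose (background 35.7%), each under the share of all genes. The HP1 genes CBX5 (-1.49, adjusted p = 4.08e-09), CBX1 (-0.61, adjusted p = 1.05e-07) and CBX3 (-0.38, adjusted p = 3.53e-05) fell, and ATF7IP2 (0.93, adjusted p = 5.45e-05) rose. Of 7 HUSH-linked and MORC genes tested (MORC1 was not), 4 fell and 2 rose: TASOR2 (-0.67, adjusted p = 6.9e-07), MORC3 (-0.60, adjusted p = 7.91e-07) and RESF1 (-0.87, adjusted p = 2.86e-05) led those that fell and SAFB2 (0.52, adjusted p = 0.000172) and SAFB (0.42, adjusted p = 0.00148) rose. CDCA7, which recruits HELLS to chromatin, fell by 2.24 on the log2 scale (adjusted p = 2.61e-11), and CDCA7L (-0.63, adjusted p = 9.24e-08) and ZBTB24 (-0.37, adjusted p = 0.0128) fell as well, all 3 of that list. The adjusted p-values are edgeR's.

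Of 10 H3K9 demethylase genes, which remove the mark, 7 fell and 2 rose on the same comparison, the first by p being JMJD1C (-0.78, adjusted p = 3.63e-07), KDM1A (-0.35, adjusted p = 7.13e-06) and KDM3B (-0.54, adjusted p = 2.29e-05) among those that fell and KDM7A (0.67, adjusted p = 6.81e-08) and KDM4B (0.87, adjusted p = 1.01e-06) among those that rose. Of 12 other heterochromatin genes, 7 fell and 3 rose. LBR, the lamin B receptor (-1.42, adjusted p = 2.42e-14), CHAF1B, of the histone chaperone CAF-1 (-1.10, adjusted p = 2.46e-12), and LMNB1, lamin B1 (-1.84, adjusted p = 3.09e-12), had the smallest p among those that fell. SIRT6 (0.85, adjusted p = 1.83e-08) and KMT5C, a histone H4K20 methyltransferase (0.62, adjusted p = 0.000269), rose. As for the members, these shares stand beside 32.8% of all genes that fell and 35.7% that rose.

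Likeness of pattern was described by Pearson's r of mean log2 CPM over the 12 groups, which share day and line effects. The genes most like SUV39H1 were the replication licensing genes ORC1 (r = 0.96) and MCM2 (0.96) and DTL (0.96), and those most like HELLS were ELK3 (0.97), FAM83B (0.96) and MCM4 (0.96). MPHOSPH8 was most like NUTM2B (0.997), EHMT1 (0.996) and UPF1 (0.995), and MORC2 like N4BP1, NINL and USP7 (0.99 or more each). TASOR was most like ULK2 (0.99), ABHD2 and BTBD7 (0.98 each), SETDB1 like USP40 (0.98), KSR2 and WDR73 (0.95 each), and EHMT2 like PCNX3, SYT7 and EIF4G1 (0.99 each). TRIM28 was most like FBXW4 and CCDC102A (0.99 each), PPHLN1 like RAMAC and ARG2 (0.99 each) and SUV39H2 like POLR1B and SELENOI (0.99 and 0.98), each with a further gene that the annotation gives without a symbol. Among the members themselves, MPHOSPH8 and MORC2 were most alike (r = 0.98) and MPHOSPH8 and PPHLN1 least (r = -0.93).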

How the data were processed

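PolyA RNA-seq of HCT116 was analysed from the gene-level counts the authors deposited for 36 libraries (12 groups of line and day, 3 libraries each). Before deposit the authors trimmed reads with Trim Galore, aligned them with STAR to GRCh38 (hg38) and counted reads per gene with featureCounts. The annotation release, the strand setting and the treatment of multimapping reads are not given in the sources used here. The members and gene lists were chosen with earlier results of these data known.

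Groups came from the sample labels. Of 60648 gene IDs, 60462 matched GENCODE v44 once versions were removed, and 186 were left out. Protein-coding genes were filtered with filterByExpr (minimum count 10), scaled by TMM and tested in R 4.3.3 with edgeR 4.0.16 (limma 3.58.1), by a robust quasi-likelihood fit of all 36 libraries with a mean for each group (24 residual degrees of freedom, common dispersion 0.0115). In 18 comparisons p-values were adjusted by Benjamini-Hochberg over 15415 genes, and genes under 0.05 were called. Intervals are at 95%. CPM values use TMM-scaled library sizes. Totals of 21074536 to 37175136 reads (median 25031562.5) set the counting precision, and each member had 108 reads or more in every library. No replicates agreed within sampling noise (chi-square per degree of freedom 3.75 to 56.5).

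The genes named are the 10 members, the 2 tagged genes, from each list the 3 called genes of smallest p in UHRF1-AID/DNMT1-AID against WT on day 8 plus up to 2 in the other direction, and the 3 genes most like each member. Alternatives were RLE scaling, library size alone, no filter, all annotated genes, a replicate block, a correction for GC content and gene length, DESeq2 1.42.0, the compared libraries alone and each library left out. Removal of mitochondrial genes was added after seeing the data. On simulated counts, estimates were unbiased and nearly all 2-fold changes in well-counted genes were recovered. Recovery of smaller changes was not part of the criterion, and changes in genes of low counts were often missed. The share of false calls was above the nominal level in every simulated run, so calls with an adjusted p near 0.05 are less certain than that value says. The criterion of that test was revised after a first run failed it on genes of low counts. A result on a cell type marker is not reported here.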

Additional observations from a re-analysis of the deposited data

Results flagged for a closer look

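These differences between degron lines, or between day 8 and day 2 in the difference from WT, passed edgeR's test of the difference itself (adjusted p under 0.05 over all genes tested). All values are log2 differences, and no cause was tested.

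UHRF1-AID/DNMT1-AID stood below UHRF1-AID on day 8 for HELLS (-0.99), SUV39H1 (-0.82), SUV39H2 (-0.40) and TASOR (-0.35), and above it for MORC2 (0.46) and PPHLN1 (0.18). It stood below DNMT1-AID for HELLS (-0.92), SUV39H1 (-0.92), SUV39H2 (-0.54), TASOR (-0.44) and EHMT2 (-0.30). Of 15 alternatives, 8 ended the PPHLN1 call and 7 the EHMT2 call. Correction for GC content and gene length ended the TASOR and SUV39H2 calls against UHRF1-AID, and scaling by library size alone the MORC2 call.

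From day 2 to day 8 the difference from WT in UHRF1-AID/DNMT1-AID changed for HELLS (-1.01), SUV39H2 (-0.78), SUV39H1 (-0.74), TASOR (-0.63) and MORC2 (0.54). It changed in UHRF1-AID for TASOR (-0.43) and EHMT2 (0.48), and in DNMT1-AID for SUV39H2 (-0.57) and TASOR (-0.38). Correction for GC content and gene length ended all of these calls in UHRF1-AID and DNMT1-AID, and the TASOR call in UHRF1-AID/DNMT1-AID. Of 21 alternatives, 11 ended the EHMT2 call, 10 the MORC2 call and 7 the TASOR call in DNMT1-AID.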

How the results depend on the processing

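With each setting changed alone, the 77 called member values kept direction and call in 75 under RLE scaling, 64 under library size alone, 74 without the filter, 73 with all annotated genes, 56 with the GC content and gene length correction, 75 with DESeq2, 72 with the compared libraries alone and 76 without mitochondrial genes. That correction turned the sign of SETDB1 (-0.044) and HELLS (-0.10) in WT on day 6 against day 2 and of SETDB1 on day 8 against day 2 (-0.046). The number of members called in UHRF1-AID on day 2 was 3, and 5 under RLE scaling, DESeq2 or the correction. With the correction it was 5 rather than 2 in UHRF1-AID on day 6, 5 rather than 9 in WT on day 6 against day 2, 4 rather than 8 on day 8 against day 2, 3 rather than 5 on day 8 against day 6, 1 rather than 0 between UHRF1-AID and DNMT1-AID on day 8, and 0 rather than 2 for the change of the UHRF1-AID difference. With library size alone it was 2 rather than 1 in DNMT1-AID on day 6, 3 rather than 6 in UHRF1-AID/DNMT1-AID on day 6, 3 in WT on day 8 against day 6, and 1 for the change of the UHRF1-AID difference. That scaling moved the median of all genes by -0.19 in UHRF1-AID/DNMT1-AID on day 8 and by 0.29 in WT on day 6 against day 2. With the compared libraries alone it was 2 in DNMT1-AID on day 6 and 1 for the change of the UHRF1-AID difference. The causes were not tested.

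Leaving out single libraries gave 3 to 6 members in UHRF1-AID on day 2 (6 without UHRF1-AID replicate 3), 3 to 4 rather than 5 in UHRF1-AID/DNMT1-AID on day 2 (3 without WT replicate 1 or 2 or UHRF1-AID/DNMT1-AID replicate 1 or 2), 0 to 1 in DNMT1-AID on day 6 (0 without WT replicate 2 or DNMT1-AID replicate 3), 1 to 4 for the change of the UHRF1-AID difference (4 without UHRF1-AID day 2 replicate 3; 1 without WT replicate 1 or 3 of either day, UHRF1-AID day 2 replicate 1 or 2 or UHRF1-AID day 8 replicate 1 or 3) and 1 to 2 for that of DNMT1-AID (1 without WT day 2 replicate 1 or 3, DNMT1-AID day 2 replicate 1 or 3, WT day 8 replicate 1 or DNMT1-AID day 8 replicate 2 or 3). Whichever library was left out, 4 to 5 members rather than 6 passed in UHRF1-AID/DNMT1-AID on day 6. In WT on day 8 against day 6 it was 4 rather than 5. Of 516 member values with a library left out, 448 kept their call and none turned.

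Replicate numbers did not pair the libraries: over 45 pairs of the same number, deviations correlated at -0.06 to 0.13, with 1 pair over 0.1. With the replicate number as a block, all 77 calls held, and 4 members were called in UHRF1-AID on day 2, 3 on day 6 and 8 in UHRF1-AID/DNMT1-AID on day 8.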
